A study of Mus musculus with 48 samples.

Results

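The genes described here are 9 immune genes measured in mouse cerebral cortex: the complement genes C4a, C4b and C3, the major histocompatibility complex (MHC) class I genes B2m, H2-D1 and H2-K1, the MHC class II invariant chain Cd74, and the interferon-stimulated genes Bst2 and Ifit3. The genes were selected on measured values: the symbols had been picked with the age differences in CPM of these same libraries known, so the age differences of the 9 genes are given as a description. Calls from a fit across all genes are counted for them beside the share of all genes called, and nothing about the 9 genes rests on those counts. They were taken by symbol from the 48526 genes of the count table, each found as 1 gene identifier through the GENCODE annotation. Comparisons between fractions were tested, but the levels in the 4 fractions may also have been in view when the genes were picked, so those p-values are not independent of the choice.

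RNA was sequenced from male wild-type C57BL/6JRj mice of 3 ages, 4 mice per age and 12 mice in all. The ages were 3 weeks (3w), a middle age that the sample labels give as 6 months and the protocol as 5 months (written 5m here), and 18 months (18m). Each mouse gave 4 libraries: cortex total homogenate (input_TH), the ribosome pellet of that homogenate spun through a sucrose cushion (SC_TH), synaptosomes (input_SYN), and the ribosome pellet of the synaptosomes (SC_SYN). Synaptosomes (SYN) are pinched-off nerve endings collected from a sucrose gradient, and RNA in the pellet travelled with ribosomes. No mouse carried a transgene, a mutation or a treatment, and no library was pooled across mice as far as the labels state. Homogenate and synaptosome fractions hold RNA of every cortical cell type, and in such bulk samples fewer cells of a type and less RNA per cell cannot be told apart.

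Library totals ran from 9699909 to 13225435 counts in input_TH, from 3058278 to 15423546 in SC_TH, from 1780267 to 7879536 in input_SYN and from 5341263 to 18590040 in SC_SYN. Depth differed by age in SC_TH, with 3058278 to 7119395 counts at 3w, 5992223 to 13484631 at 5m and 9612408 to 15423546 at 18m. In SC_SYN the 3w libraries (5415274 to 6132944) lay below the 5m libraries (8328535 to 14557582). Levels are CPM (each count as a share of its library, scaled to one common total) after TMM scaling over all 48 libraries, which sets libraries on a common scale by trimming the most different genes. The TMM factors were 1.19 to 1.28 in input_TH, 1.16 to 1.22 in SC_TH, 0.779 to 0.874 in input_SYN and 0.785 to 0.886 in SC_SYN, so differences between TH and SYN depend on this scaling. The input_TH library of mouse 191 (5m) stood apart for several of the 9 genes, and results that rest on it are given with and without that mouse. Lymphocyte markers were close to absent in every library, with a summed level of 0.643 to 10.1 CPM over 8 genes. Summed nuclear RNA (7 genes) had medians of 12365, 9175 and 5565 CPM at 3w, 5m and 18m in SC_TH. In SC_SYN its medians were 1191, 1316 and 2593 CPM. The part of nuclear RNA in the age differences of the pellets was not tested.

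Complement is a cascade of plasma proteins that tag surfaces for removal. C4 is cut during the classical pathway, C4b is the gene for the form that works in mouse tissues, C4a (also called Slp, sex-limited protein) is its neighbouring copy, and C3 is the component on which all activation routes meet. In brain, complement proteins made by glia take part in the removal of synapses. MHC class I molecules show peptides from inside the cell on its surface, each as a heavy chain (H2-D1 and H2-K1 in this strain) bound to beta-2-microglobulin (B2m). Cd74 guards the groove of class II molecules, Bst2 (tetherin) holds budding viruses on the cell membrane, and Ifit3 is among the genes switched on by type I interferon.

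In GRCm38 coordinates 5 of the 9 genes lie on chromosome 17: C4a at 34809092-34823464 on the minus strand, C4b at 34728380-34743882 (minus), H2-D1 at 35262730-35267499 (plus), H2-K1 at 33996017-34000347 (minus) and C3, farther along, at 57203970-57228136 (minus). B2m lies on chromosome 2 at 122147686-122153083 (plus), Bst2 on chromosome 8 at 71534255-71537456 (minus) and Ifit3 on chromosome 19 at 34583531-34588731 (plus). The annotation gives C4a as a processed transcript without an open reading frame.

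Short promoter elements recur among these genes, and 5 stretches are shown because they set B2m, Bst2, Ifit3 and the class I heavy chains side by side. RefSeq promoter sequence (GRCm38.p6) was searched on both strands for GAAANNGAA and for GAANNGAAA, which are forms of the interferon response element with a base of the full element left free, and for GGGGATTCC, from the kappa B element of class I promoters. Capitals mark the matches, and in Ifit3, H2-K1 and H2-D1 the interferon motif lies on the opposite strand and is printed as its reverse complement. Each line runs 5′ to 3′ along the gene's own strand: B2m at chr2:122147517-122147586 (plus), Bst2 at chr8:71537561-71537630 (minus), Ifit3 at chr19:34583370-34583439 (plus), H2-K1 at chr17:34000409-34000478 (minus) and H2-D1 at chr17:35262903-35262972 (plus).
B2m: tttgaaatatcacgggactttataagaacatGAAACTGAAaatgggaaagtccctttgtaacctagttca
Bst2: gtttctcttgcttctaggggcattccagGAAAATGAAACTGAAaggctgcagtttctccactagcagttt
Ifit3: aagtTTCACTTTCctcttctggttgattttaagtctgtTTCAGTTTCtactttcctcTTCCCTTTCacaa
H2-K1: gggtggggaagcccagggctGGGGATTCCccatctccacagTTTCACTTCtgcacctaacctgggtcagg
H2-D1: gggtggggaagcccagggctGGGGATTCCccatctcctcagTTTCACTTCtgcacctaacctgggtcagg
B2m held 1 match of GAAANNGAA, Bst2 held 2 that overlap and Ifit3 held 3, while H2-K1 and H2-D1 each held GAANNGAAA and GGGGATTCC. The H2-K1 and H2-D1 stretches were identical at 69 of 70 bases and differed by A38T, counted from 1 at the first base printed with the H2-K1 base first. The H2-D1 stretch lies before the RefSeq start but inside the span that GENCODE gives for the gene (35262730-35267499). Among 27025 genes, 8.18% had GAAANNGAA in the 250 bases before the start, 7.3% had GAANNGAAA and 0.255% (69 genes) had GGGGATTCC. The C3 window held none of these motifs, and C4a and C4b were not among the RefSeq promoter entries. These motif letters were settled after the same windows had been searched with longer forms. A match is a description of letters and not of binding.

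C4b was the gene with the steadiest age pattern. In every one of the 4 fractions the 5m libraries lay above the 3w libraries and the 18m libraries above the 5m libraries, with no overlap in any of the 8 comparisons. Of all genes tested, 8.61%, 9.2%, 6.74% and 11.4% were higher without overlap between 3w and 5m in input_TH, SC_TH, input_SYN and SC_SYN, and 9.84%, 3.51%, 3.63% and 4.74% between 5m and 18m. Fitted differences ran from 2.26-fold to 2.71-fold between 3w and 5m and from 1.72-fold to 1.93-fold between 5m and 18m.

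In input_TH, C4b stood at 15.3, 10.7, 11.8 and 11.9 CPM at 3w, at 44.2, 24.5, 26.8 and 25.6 CPM at 5m, and at 49.6, 48.2, 53.1 and 57.3 CPM at 18m. The ages were separate, with mouse 191 (44.2 CPM) close to the 18m mice. In SC_TH the C4b values were 11.6, 11.3, 16.2 and 15.7 CPM at 3w, 38.0, 37.5, 38.0 and 31.0 CPM at 5m, and 72.9, 56.1, 68.4 and 74.0 CPM at 18m. In input_SYN they were 27.4, 29.4, 25.3 and 25.1 CPM at 3w, 70.2, 56.6, 57.9 and 64.5 CPM at 5m, and 116, 111, 129 and 129 CPM at 18m. In SC_SYN C4b read 34.8, 31.8, 39.3 and 31.5 CPM at 3w, 117, 92.5, 84.7 and 89.5 CPM at 5m, and 149, 150.1, 171 and 182 CPM at 18m. The highest 3w library was below the lowest 5m library in each fraction, and the lowest 18m library above the highest 5m library.

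As log2 fold change ± SE, C4b was higher at 5m than at 3w by 1.27 ± 0.17 in input_TH, 1.39 ± 0.13 in SC_TH, 1.18 ± 0.12 in input_SYN and 1.44 ± 0.14 in SC_SYN. From 5m to 18m the differences were 0.78 ± 0.15, 0.93 ± 0.11, 0.95 ± 0.11 and 0.80 ± 0.13 in the same order. Without mouse 191 the input_TH values became 1.03 and 1.02. Whether the age difference of C4b was larger in SYN than in TH was examined by an interaction of age and compartment, whose 95% interval for C4b in the pellets was -0.31 to 0.44 (log2) for 5m against 3w and -0.48 to 0.20 for 18m against 5m.

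**Figure D1:**
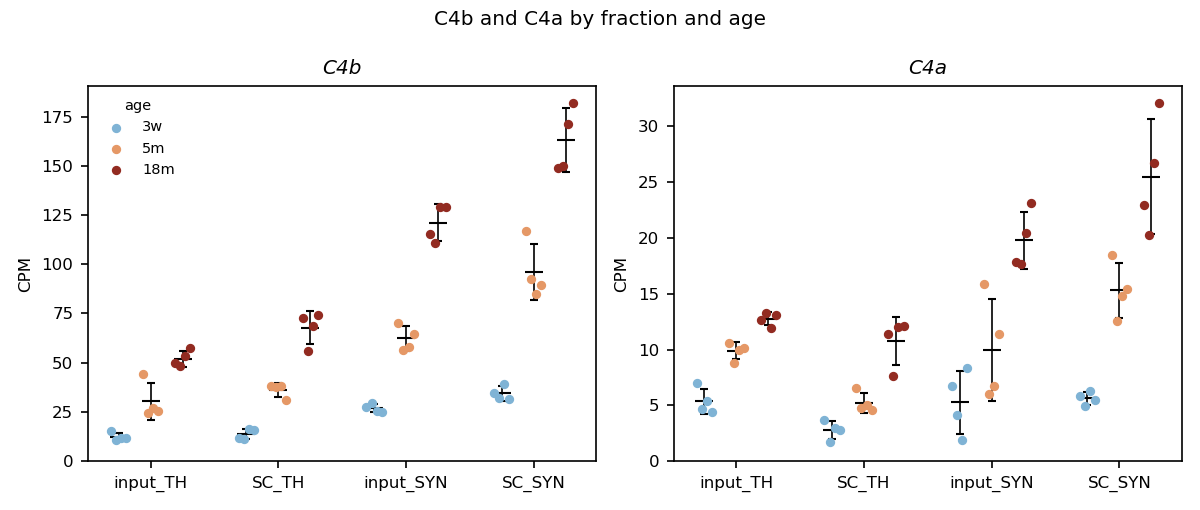
C4b and C4a levels (CPM, linear axis from 0) in each of the 48 libraries, by fraction and age, with bars for the mean ± SD of 4 mice. C4b is higher at each later age in every fraction, from 34.4 ± 3.65 to 163 ± 16.3 CPM in SC_SYN, and C4a runs below it throughout.

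C4a, the copy next to C4b, ran at lower levels and with the same order of ages. In SC_SYN it read 5.84, 4.91, 6.28 and 5.49 CPM at 3w, 18.5, 12.5, 14.8 and 15.4 CPM at 5m, and 23, 20.2, 26.7 and 32.1 CPM at 18m. In SC_TH it read 3.64, 1.72, 2.93 and 2.75, then 6.55, 4.74, 5.01 and 4.59, then 11.4, 7.59, 12.0 and 12.1 CPM. The ages did not overlap in either pellet, nor in input_TH, where the means were 5.35 ± 1.15, 9.88 ± 0.755 and 12.7 ± 0.582 CPM (SD, n = 4).

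In input_SYN, the shallowest fraction, the 3w values of C4a (6.70, 4.12, 1.90 and 8.35 CPM) overlapped the 5m values (15.9, 5.99, 6.73 and 11.4 CPM), and the 18m values (17.8, 17.7, 20.4 and 23.1 CPM) lay above both. The log2 differences of C4a between 3w and 5m were 0.87 ± 0.13 in input_TH, 0.93 ± 0.24 in SC_TH, 0.92 ± 0.35 in input_SYN and 1.40 ± 0.19 in SC_SYN. Between 5m and 18m they were 0.37 ± 0.12, 1.04 ± 0.18, 0.94 ± 0.28 and 0.76 ± 0.17.

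C4a and C4b share sequence, and counts of either may hold reads of the other. Of the 5280 windows of 100 bases in the longest C4b transcript, 16.5% occur unchanged in C4a and 49.6% with at most 2 mismatches. The share of C4a in the counts of both genes was therefore followed as a measure of its own. In input_TH, C4a took 30.0% ± 2.04 at 3w, 25.3% ± 4.07 at 5m and 19.7% ± 1.51 at 18m (SD, n = 4). In the other fractions every group mean lay between 12.6% and 16.8%.

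Over the 12 mice C4a averaged 25.0% of these counts in input_TH against 14.4% in SC_TH, a difference of 10.7 ± 5.13 percentage points (SD), higher in 12 of 12 mice (exact two-sided sign-flip test, p = 0.000488, adjusted p = 0.000976 over 4 comparisons). The difference between input_TH and input_SYN was 10.6 ± 7.41 points, also in 12 of 12 mice, with the same exact p of 0.000488 (adjusted 0.000976), the smallest that 12 mice allow. Input_SYN and SC_SYN differed by 0.674 ± 4.51 points (7 of 12 mice, exact sign-flip p = 0.623, adjusted 0.694), and SC_TH and SC_SYN by 0.579 ± 3.1 points (7 of 12 mice, exact sign-flip p = 0.694). A larger part of the counts of both genes was thus assigned to C4a in whole homogenate RNA than in the homogenate pellet or in synaptosomes. Because reads of either gene may sit in the count of the other, the gene each read came from is not shown. These p-values are not independent of how the genes were picked.

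**Figure D2:**
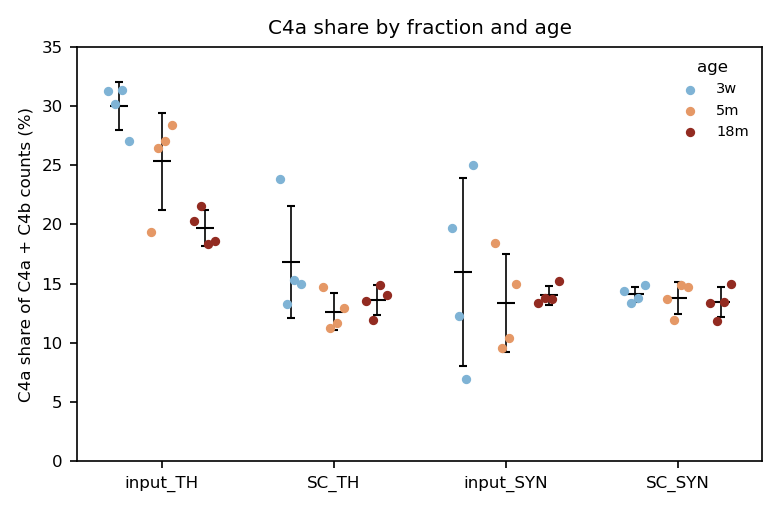
Percent of the summed C4a and C4b counts that fell on C4a, per library, by fraction and age, with the mean ± SD of 4 mice. The input_TH libraries lie highest, with means of 30.0%, 25.3% and 19.7% at 3w, 5m and 18m, and the other fractions average between 12.6% and 16.8%.

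C3 was scarce, with 0 to 45 counts per library. In input_TH it read 0.305, 0.244, 0.249 and 0.0786 CPM at 3w, 1.06, 0.577, 0.401 and 0.699 CPM at 5m, and 1.49, 1.09, 1.13 and 1.42 CPM at 18m, with no overlap between ages. The log2 differences there were 1.56 ± 0.42 and 0.91 ± 0.29. In SC_TH the 3w mice had 0, 0.191, 0.939 and 0 CPM against 2.41, 1.44, 0.491 and 0.977 CPM at 5m and 1.22, 1.94, 2.23 and 2.43 CPM at 18m, so neighbouring ages overlapped.

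In SC_SYN, C3 averaged 0.410 ± 0.302 CPM at 3w, 0.616 ± 0.181 CPM at 5m and 1.86 ± 0.313 CPM at 18m, and in input_SYN 0.298 ± 0.345, 0.452 ± 0.421 and 1.57 ± 0.616 CPM. It was below the count filter in both synaptosome fractions. Where C3 had 0 counts, 3 counts would correspond to 0.664 to 1.69 CPM of the plain library totals, without TMM scaling. A level below the limit of its library could have been missed there.

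B2m, the common light chain of class I, had the highest level per transcript length of the 9 genes in SC_SYN, but varied widely among mice. In SC_SYN it read 83.4, 28.9, 39.1 and 72.0 CPM at 3w, 70.5, 96.3, 103 and 82.0 CPM at 5m, and 49.8, 108, 123 and 50.7 CPM at 18m, so that all 3 ages overlapped. In SC_TH the values were 14.6, 9.55, 22.8 and 19.8 CPM, then 43.0, 19.4, 20.4 and 27.4 CPM, then 34.8, 39.4, 42.4 and 42.1 CPM. The 5m mice overlapped both neighbours while every 18m mouse lay above every 3w mouse, and the fitted log2 differences were 0.74 ± 0.25 and 0.51 ± 0.22.

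In input_TH, B2m stood at 16.3 ± 2.53, 22.6 ± 5.56 and 19.4 ± 2.98 CPM at the 3 ages, and in input_SYN at 28.1 ± 10.5, 47.0 ± 11.8 and 47.7 ± 24.3 CPM. None of these neighbouring ages separated.

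H2-D1, a class I heavy chain, changed less with age than C4b. In SC_SYN it read 39.6, 85.8, 91.4 and 71.6 CPM at 3w, 104, 90.3, 81.5 and 95.6 CPM at 5m, and 92.0, 82.7, 89.0 and 116 CPM at 18m, with mouse 187 the lowest at 3w. In input_TH it read 10.9, 14.9, 16.5 and 14.1 CPM at 3w, 37.6, 16.0, 18.3 and 17.9 CPM at 5m, and 22.9, 23.2, 20.7 and 28.5 CPM at 18m. The log2 difference of 0.68 ± 0.22 between 3w and 5m in input_TH leaned on mouse 191 (37.6 CPM), and the 5m and 18m groups separated only without that mouse (0.45 ± 0.12 against 0.09 with it).

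H2-K1, the second heavy chain, followed H2-D1 at a lower level. In input_TH it read 5.86, 8.55, 7.23 and 6.76 CPM at 3w, 30.8, 9.98, 9.76 and 10.4 CPM at 5m, and 14.2, 12.4, 13.3 and 17.1 CPM at 18m. The 5m mice were all above the 3w mice (1.10 ± 0.31, and 0.51 ± 0.13 without mouse 191). From 5m to 18m the H2-K1 difference was -0.09 with mouse 191 and 0.51 ± 0.12 without it, so this single library set the direction. In input_SYN H2-K1 read 12.3, 18.1, 16.4 and 13.5 CPM at 3w and 24.0, 22.6, 18.9 and 24.1 CPM at 5m, again without overlap (0.54 ± 0.23). In SC_SYN the ages overlapped, at 28.5 ± 8.86, 39.5 ± 8.0 and 40.9 ± 7.44 CPM.

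H2-D1 and H2-K1 share little sequence with each other at read length: no 100-base window of H2-D1 occurs unchanged in H2-K1, and 4.99% occur with at most 2 mismatches. With H2-Q7, another class I gene, H2-D1 shares 1.55% unchanged and 7.49% with at most 2 mismatches.

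Cd74 (chromosome 18, 60803848-60812652, plus strand), which escorts class II molecules, was low and uneven. In SC_TH it read 1.46, 1.72, 0.704 and 1.38 CPM at 3w, 2.84, 2.44, 2.16 and 1.76 CPM at 5m, and 3.44, 4.24, 4.97 and 5.46 CPM at 18m, with the ages separate at both steps (0.91 ± 0.31 and 0.98 ± 0.21). In SC_SYN it read 3.34, 0.589, 1.67 and 1.71 CPM at 3w, 6.91, 4.25, 5.79 and 3.92 CPM at 5m, and 2.17, 5.57, 5.67 and 3.93 CPM at 18m. There the 5m mice lay above the 3w mice (1.45 ± 0.40) and overlapped the 18m mice (-0.16). In input_TH one library dominated: mouse 191 had 14.2 CPM, while the other 5m mice had 0.825, 3.21 and 1.89 CPM. The Cd74 difference between 3w and 5m in input_TH was 1.48 ± 0.59 with that mouse and 0.18 ± 0.32 without it.

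Ifit3, an interferon-induced inhibitor of viral RNA translation, was higher at 5m than at 3w without overlap in input_TH and SC_SYN. In input_TH it read 2.07, 1.63, 2.08 and 2.36 CPM at 3w, 8.10, 3.71, 4.15 and 4.48 CPM at 5m, and 3.34, 3.19, 3.54 and 2.90 CPM at 18m. The 5m mice were thus above both neighbours (at the later step 8.25% of all genes were lower without overlap and 18.1% separated in either direction), by 1.32 ± 0.23 over 3w and with 18m lower by -0.65 ± 0.21 (-0.35 ± 0.16 without mouse 191). In SC_SYN Ifit3 read 5.84, 6.87, 6.07 and 7.01 CPM at 3w, 12.3, 10.6, 15.3 and 10.3 CPM at 5m, and 12.5, 8.03, 11.3 and 20.8 CPM at 18m, with differences of 0.86 ± 0.26 and 0.11. Reads of Ifit3 cannot be fully told from its copy Ifit3b: 31.7% of its 100-base windows occur unchanged in Ifit3b and 67.4% with at most 2 mismatches.

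Bst2 was low everywhere, with 0.632 to 5.11 CPM over the 48 libraries, and no pair of neighbouring ages separated in any fraction. In input_TH it read 1.83, 1.22, 1.41 and 1.18 CPM at 3w, 4.47, 1.24, 1.07 and 1.54 CPM at 5m, and 1.78, 0.755, 0.920 and 1.98 CPM at 18m. The 4.47 CPM again belonged to mouse 191.

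**Figure D3:**
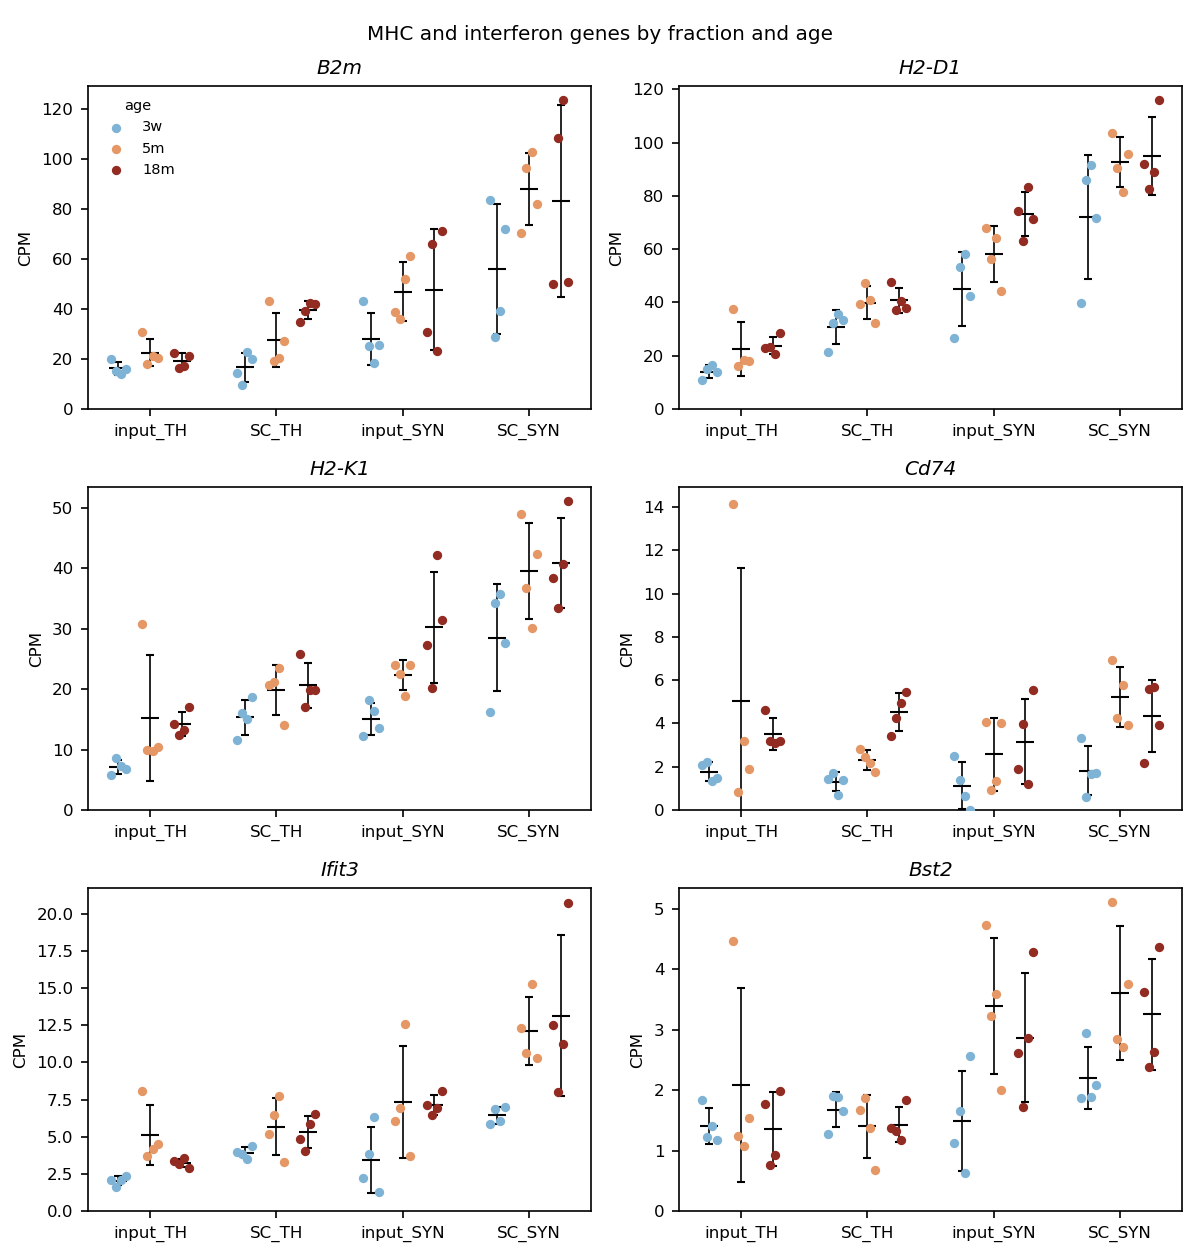
Levels (CPM, linear axes from 0) of B2m, H2-D1, H2-K1, Cd74, Ifit3 and Bst2 in each library, by fraction and age, with the mean ± SD of 4 mice. B2m, H2-D1, H2-K1, Ifit3 and Bst2 have higher means in SC_SYN than in SC_TH at each age, Cd74 averages 4.34 CPM in SC_SYN and 4.53 CPM in SC_TH at 18m, and the input_TH library of mouse 191 is the highest 5m point for each of them in that fraction (14.2 CPM for Cd74, 30.8 CPM for H2-K1).

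Counted over the 9 genes, 5 passed an adjusted p under 0.05 from edgeR's quasi-likelihood test between 3w and 5m in input_TH, all higher (C4a, C4b, C3, H2-K1 and Ifit3), where 4.76% of all genes tested passed as higher. Between 5m and 18m in input_TH 3 were higher (C4a, C4b and C3; background 8.18%) and 1 was lower (Ifit3; background 7.35%, and 15.5% in either direction). In SC_TH, C4a, C4b and B2m passed for 5m against 3w (background 9.48% higher) and C4a, C4b and Cd74 for 18m against 5m (0.377%). In input_SYN only C4b passed, at both steps, of 8 genes tested (1.28% and 0.0308%). In SC_SYN, C4a, C4b and Cd74 passed for 5m against 3w (4.02%). For 18m against 5m in SC_SYN 0 of 8 passed in edgeR, where 0.014% of all genes did in either direction. An unadjusted p under 0.05 was found for 2 of the 8, and for 2474 of all 14240 genes tested. In DESeq2 2 of the 9 genes passed, and 325 of all genes. These counts describe genes picked with such differences known and nothing was read from them. With library totals in place of TMM the share of passing genes that were higher moved from 40.3% to 59.2% and from 52.7% to 32.6% at the 2 steps in input_TH, and from 50.0% to 39.2% for 5m against 3w in SC_SYN. With the mouse as a random block over all 48 libraries in limma, 1 of the 9 genes passed for 18m against 5m in input_TH, 5 for 5m against 3w in SC_SYN and 3 for 18m against 5m in SC_SYN. That fit also lost C3 for 5m against 3w in input_TH (limma adjusted p = 0.0809) and gained it at the same step in SC_TH (0.00486).

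The number passing moved with mouse 191. Without it 4 passed in input_TH between 3w and 5m, with C3 lost, where 907 of all genes passed as higher against 861 with it. Between 5m and 18m 5 passed there, all higher (C4a, C4b, C3, H2-D1 and H2-K1). At that step 1599 of all genes passed as higher without mouse 191, against 1479 with it. In SC_TH, C4b was left alone for 5m against 3w (C4a 0.78, B2m 0.42), where 1004 of all genes passed as higher against 1558 with that mouse. B2m joined for 18m against 5m (0.84), where 279 of all genes passed as higher against 62. In SC_SYN, C4b passed for 18m against 5m (0.91) without that mouse, where 2 of all genes passed in either direction with or without it.

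In its input_TH library mouse 191 exceeded the mean of the other 5m mice 7.17-fold for Cd74, 3.49-fold for Bst2, 3.07-fold for H2-K1, 2.16-fold for H2-D1, 1.97-fold for Ifit3, 1.90-fold for C3, 1.73-fold for C4b and 1.54-fold for B2m, and 1.10-fold for C4a. In the same library the summed markers of mural cells and fibroblasts (10 genes) stood 3.63-fold above the other 5m mice (702 CPM against 177 to 202 CPM), those of border macrophages (8 genes) 2.31-fold (86.2 against 36.7 to 37.9 CPM) and those of endothelial cells (10 genes) 1.47-fold, while microglia (14 genes) stood at 1.11-fold, astrocytes (10 genes) at 0.881-fold and neurons (10 genes) at 0.856-fold. In the SC_TH library of that mouse the mural and fibroblast markers were at 1.03-fold, and in its SC_SYN library at 1.73-fold (401 CPM against 218 to 251 CPM), with border macrophage markers there at 1.43-fold. The part of these markers in the levels of the 9 genes was not tested.

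**Figure D4:**
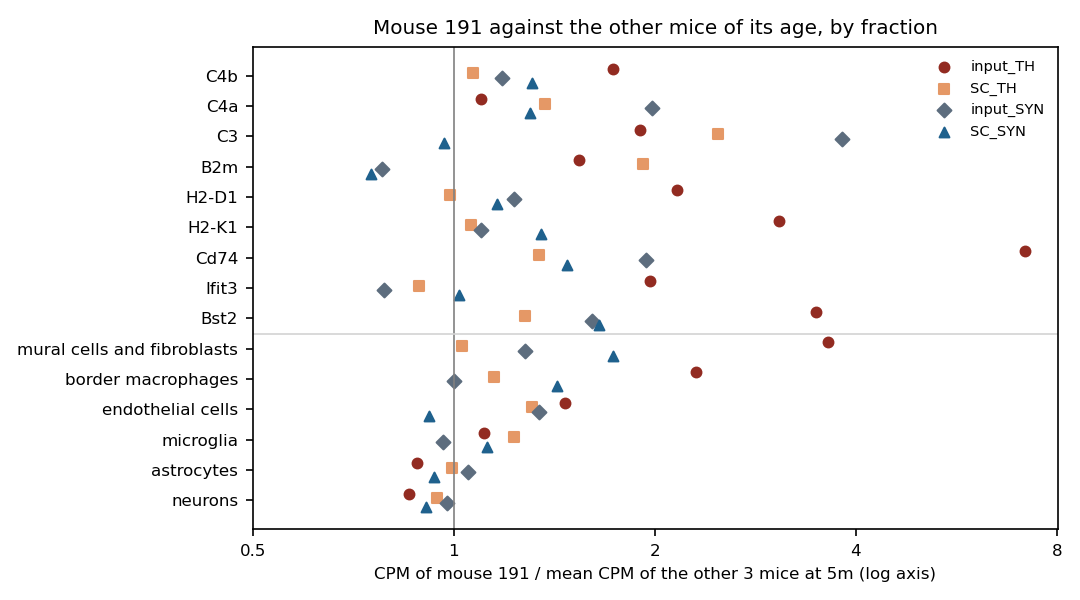
Ratio (log axis) of mouse 191 to the mean of the other 3 mice at 5m for the 9 genes and for summed cell type markers, by fraction. In input_TH the ratio reaches 7.17 for Cd74 and 3.63 for mural and fibroblast markers, against 1.11 for microglia markers.

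Synaptosomes were then compared with homogenate. The p-values of the 9 genes in this and the later fraction comparisons are not independent of how the genes were picked. Each mouse gave a library to both sides, and the main fit took no account of that pairing. In the ribosome pellets, 8 of the 9 were higher in synaptosomes than in homogenate, and 36.9% of all 16630 genes tested were. B2m differed most, by 1.52 ± 0.19 on the log2 scale (adjusted p = 4.17e-08, edgeR's quasi-likelihood test with Benjamini-Hochberg adjustment), followed by C4b with 1.37 ± 0.08 (1.04e-14), C4a with 1.28 ± 0.12 (2.98e-10) and H2-D1 with 1.26 ± 0.10 (3.2e-11). Ifit3 was higher by 1.05 ± 0.15 (5.02e-07), H2-K1 by 0.99 ± 0.12 (2.26e-08), Bst2 by 0.96 ± 0.17 (1.33e-05) and Cd74 by 0.59 ± 0.20 (0.01). SC_SYN exceeded SC_TH in each of the 12 mice for C4a, C4b, B2m, H2-D1, H2-K1, Bst2 and Ifit3, and in 9 of 12 for Cd74. C3 had a difference of -0.37 with an interval of -1.09 to 0.34 (adjusted p = 0.348).

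In the input RNA, 5 of the 9 were higher in synaptosomes (36.7% of all genes were): H2-D1 by 1.55 ± 0.13 (edgeR adjusted p = 6.87e-12), C4b by 1.13 ± 0.09 (1.1e-12), B2m by 1.09 ± 0.15 (1.54e-07), H2-K1 by 0.91 ± 0.17 (2.72e-05) and Ifit3 by 0.77 ± 0.19 (0.000457). H2-D1, C4b and B2m were higher in 12 of 12 mice. Bst2 missed the threshold at 0.61 ± 0.29 (0.0553) and passed it with the mouse as a fixed block in edgeR (0.0181). C4a (0.23 ± 0.13, adjusted p = 0.113), C3 (0.01 ± 0.32, 0.98) and Cd74 (-0.39 ± 0.43, 0.403) did not pass.

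These sizes follow the scaling. With plain library totals in place of TMM the median of all genes moved from -0.0804 to -0.634 between SC_SYN and SC_TH and from -0.167 to -0.769 between the inputs, and the share of passing genes that were higher moved from 46.6% to 25.7% and from 43.6% to 25.0%. Subtracting that median takes the shift in scale out again and is no check on the scaling. It gave 1.60 for B2m, 1.44 for C4b, 1.36 for C4a and 1.33 for H2-D1 in the pellets. In the inputs it gave 1.72 for H2-D1, 1.30 for C4b and 1.25 for B2m. The differences with library totals themselves were smaller than with TMM. They were 0.969 for B2m, 0.81 for C4b, 0.73 for C4a and 0.70 for H2-D1 in the pellets. In the inputs they were 0.948 for H2-D1, 0.529 for C4b and 0.485 for B2m. The call was lost for Cd74 in the pellets (0.04) and for H2-K1 (0.30) and Ifit3 (0.17) in the inputs. With those totals C4a in the inputs turned to -0.37 (adjusted p = 0.01 from edgeR), and C3 in the pellets (-0.92, 0.023) and Cd74 in the inputs (-0.999, 0.0265) passed as lower.

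Of the cell type markers, 13 of 14 for microglia and 10 of 10 for astrocytes were higher in SYN than in TH, in pellets and in inputs alike. Of all genes, 36.9% were higher in the pellets and 36.7% in the inputs. Of 10 oligodendrocyte markers 8 were higher and 1 lower in the pellets, and 6 higher and 2 lower in the inputs. Endothelial markers were lower in SYN for 10 of 10 in both, where 7034 of 16630 genes in the pellets and 8464 of 17860 in the inputs were lower. Summed microglia markers ran from 261 to 375 CPM over the SC_TH libraries and from 556 to 1021 CPM over the SC_SYN libraries. Neuron markers ran from 9737 to 11734 CPM and from 16111 to 19654 CPM in the same order. Border macrophage markers ran from 26.2 to 44.9 CPM and from 49.3 to 131 CPM. The part of all these markers in the levels of the 9 genes was not tested.

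Within homogenate the pellet was compared with its input. H2-D1 was higher in the pellet by 0.92 ± 0.11 (edgeR adjusted p = 2.1e-08, in 12 of 12 mice), C3 by 0.82 ± 0.34 (0.0299, in 8 of 12 mice), H2-K1 by 0.69 ± 0.15 (0.000197), Ifit3 by 0.61 ± 0.14 (0.000302), B2m by 0.48 ± 0.12 (0.00103) and C4b by 0.27 ± 0.09 (0.0073). C4a went the other way, lower by -0.68 ± 0.10 (9.01e-07) and lower in 11 of 12 mice. Bst2 (-0.07 ± 0.23, adjusted p = 0.788) and Cd74 (-0.41 ± 0.32, 0.252) did not pass, and of all genes 35.6% were higher and 40.2% lower, 75.8% in either direction. C3 fell to 0.065 (adjusted p = 0.972 from edgeR) without mouse 189. C4b passed in 16 of 20 alternatives and missed the threshold with library totals (0.20, adjusted p = 0.0502 from edgeR), a minimum of 10 counts (0.19), thinned counts (0.16) and C4a and C4b summed (0.08, adjusted p = 0.361 from edgeR).

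Within synaptosomes 5 genes were higher in the pellet than in its input, where 21.8% of all genes were: B2m by 0.87 ± 0.20 (edgeR adjusted p = 0.00114), Ifit3 by 0.84 ± 0.19 (0.000985), H2-K1 by 0.71 ± 0.13 (0.000118), H2-D1 by 0.56 ± 0.12 (0.000681) and C4b by 0.45 ± 0.07 (1.17e-05). C4b and H2-D1 were higher in 12 of 12 mice. C4a reached 0.33 ± 0.15 (0.0845), and 0.35 with the mouse as a fixed block in edgeR (0.0385). Cd74 (0.54 ± 0.30, 0.147) and Bst2 (0.24 ± 0.21, 0.389) did not pass, and C3 was below the count filter.

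**Figure D5:**
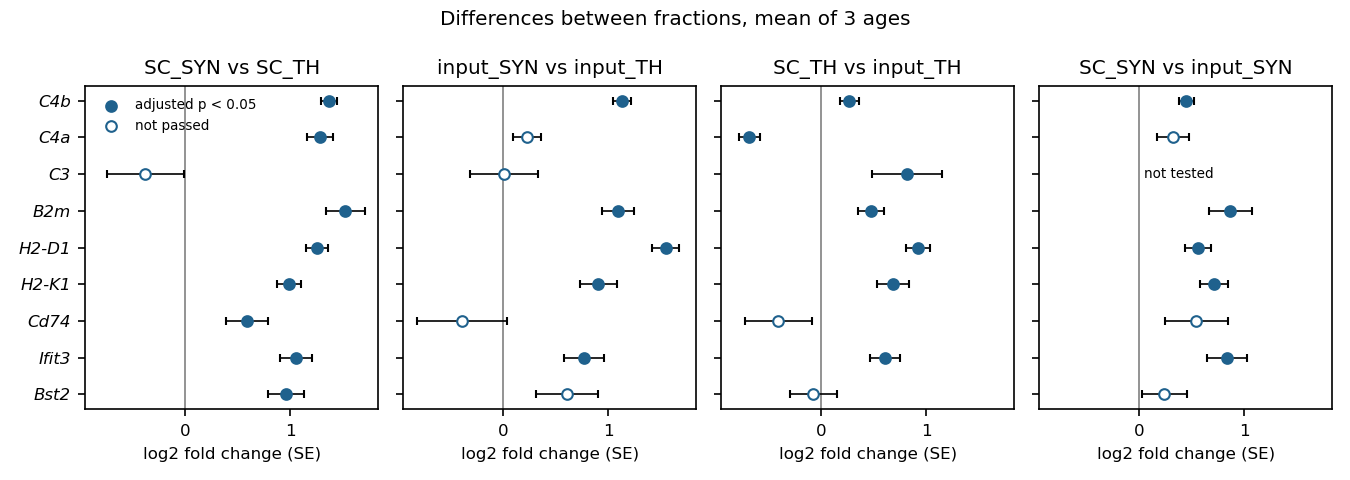
Log2 fold change ± SE of the 9 genes between fractions, averaged over the 3 ages, in 4 comparisons, with filled points for an adjusted p under 0.05 in edgeR. Points for SC_SYN against SC_TH lie between 0.59 and 1.52 for all genes but C3, and C4a is the gene below 0 that passes in SC_TH against input_TH (-0.68).

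None of the 6 interaction contrasts, which ask whether an age difference itself differed between compartments or between pellet and input, reached an adjusted p under 0.05 for any of the 9 genes in edgeR or in DESeq2. Of all genes, 0.0301% and 0% passed at the 2 steps between the pellets, 0.0224% and 2.42% between the inputs, 1.78% between SC_TH and input_TH and 0% between SC_SYN and input_SYN. An unadjusted p under 0.05 was found for 1 of the 9 genes at each age step between the pellets, where 1324 and 2855 of 16630 genes had one. Between the inputs it was found for 0 of the 9 at either step (1437 and 3168 of 17860 genes). For 18m against 5m it was found for 3 between SC_TH and input_TH (3137 of 18416 genes). Between SC_SYN and input_SYN it was found for 0 (393 of 14301 genes). Without mouse 191, C4a (0.78) and B2m (0.85) passed in the contrast of SC_TH and input_TH, where 1282 of all genes passed against 328 with it.

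Set per kilobase of exon, where genes can be compared, B2m led in SC_SYN at 18m with 96.6 ± 44.7 RPKM (CPM divided by exon length in kilobases), followed by H2-D1 with 36.8 ± 5.65, C4b with 28.6 ± 2.85, H2-K1 with 13.9 ± 2.53, Ifit3 with 7.53 ± 3.10, C4a with 4.11 ± 0.827, Bst2 with 3.60 ± 1.01, Cd74 with 2.58 ± 0.982 and C3 with 0.361 ± 0.0608. The ranges of mean ± SD overlapped for H2-D1 and C4b, and for each neighbouring pair from Ifit3 down to Cd74. The order among those genes is therefore not settled. In input_TH at 3w the order was B2m (19.0 RPKM), H2-D1 (5.46), H2-K1 (2.42 ± 0.38), C4b (2.18 ± 0.34), Bst2 (1.56 ± 0.33), Ifit3 (1.17 ± 0.17), Cd74 (1.06 ± 0.25), C4a (0.862 ± 0.186) and C3 (0.0426). There the ranges of mean ± SD overlapped for each neighbouring pair from H2-K1 down to C4a, so the order among those genes is not settled.

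Across the 48 libraries, after the mean of each fraction was subtracted, C4b ran closest to Abca8a (r = 0.939), Dmp1 (0.921) and Pcdhga9 (0.903), among 12218 genes compared. H2-D1 ran closest to H2-T22 (0.824), Ifi27 (0.769) and Dkk3 (0.766), and H2-K1 to Ifi27 (0.827), Ctsz (0.801) and Ddx23 (0.790). B2m stood apart from its heavy chains and ran with Ubqln2 (0.936), Rps19 (0.932) and Rps24 (0.922). Among the 9 genes the closest pairs were C4a with C4b (0.916) and H2-D1 with H2-K1 (0.905), whereas B2m and H2-D1 gave 0.128. The means of the ages were not subtracted, so differences between the 3 ages are part of these values. They describe libraries that share mice and depth and carry no test.

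The wider lists leave out the 9 genes. They too were chosen with earlier results of these data known, so their p-values and counts are not independent of that choice. Of the complement list (39 genes, 25 tested in SC_TH), 10 rose and 1 fell between 3w and 5m in SC_TH (background 9.48% higher), among them C1ra, a protease of the first component, by 1.69 ± 0.34 (edgeR adjusted p = 0.00303), Itgb2, a chain of complement receptor 3, by 0.95 ± 0.18 (0.00227), Sez6l2, a neuronal regulator of C3, by 0.80 ± 0.13 (0.000537), and C1qa, a chain of C1q, by 0.62 ± 0.11 (0.00105). C1qa stood at 24.4 ± 2.95 CPM at 3w and 37.8 ± 4.10 CPM at 5m. In SC_SYN 6 of 26 rose and 0 fell (background 4.02% higher), among them C1qa by 1.03 ± 0.16, C1qb by 1.02 ± 0.17, C1qc by 1.22 ± 0.27 and Itgb2 by 1.58 ± 0.20, chosen here after their values were seen. In SC_SYN 6 of 14 microglia markers rose at the same step, with sums of 556 to 641 CPM at 3w and 864 to 1014 CPM at 5m, and their part in the complement list was not tested.

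Between 5m and 18m no gene of the complement list passed in SC_TH or SC_SYN. In SC_TH 0 of 25 passed in edgeR, 1 had an unadjusted p under 0.05 and 0 passed in DESeq2. In SC_SYN the counts were 0 of 26, 5 and 0 in the same order. Few genes of any kind passed at that step in edgeR, 356 of 16427 in SC_TH and 0.014% in SC_SYN. An unadjusted p under 0.05 was found for 2878 of 16427 genes in SC_TH and for 2474 of 14240 in SC_SYN. C4b and C4a passed in SC_TH but not in SC_SYN in edgeR, and their groups did not overlap in either pellet. In input_TH 2 of 27 rose and 1 fell between 3w and 5m (background 4.76% higher), with Sez6l2 0.26 ± 0.06 (edgeR adjusted p = 0.00641) and Csmd2, a synaptic complement regulator, at -0.22 ± 0.07 (0.0472). Cr1l, which limits C3 activation on cells, fell by 0.29 on the log2 scale at 18m (adjusted p = 0.0205). Without mouse 191 the count at that step was 5, with 2 higher, in place of 1, and 3351 of all genes passed against 2808 with it.

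Class I and antigen processing genes (28 genes, 24 tested in input_TH) gave 3 that rose between 3w and 5m in input_TH (background 4.76% higher) and none that fell: the non-classical class I gene H2-T22 by 1.04 ± 0.12 (edgeR adjusted p = 1.99e-05), the peptide transporter subunit Tap2 by 0.68 ± 0.17 (0.0159) and H2-T23 by 0.64 ± 0.16 (0.0122). In SC_TH 4 of 22 rose and 1 fell (background 9.48% higher, and 2 passed without mouse 191), with Tapbpl, a peptide editor, at 0.87 ± 0.20 (0.00676), H2-T22 at 0.69 ± 0.15 (0.00611), Tap2 at 0.51 ± 0.16 (0.0345) and tapasin (Tapbp) at 0.34 ± 0.10 (0.0333). Of all genes, 1985 passed at that step without mouse 191, against 2948 with it. Between 5m and 18m in input_TH 1 rose and 1 fell (background 8.18% higher and 7.35% lower), H2-T24 with -0.85 ± 0.28 (0.0473), but without mouse 191 8 of them rose and 0 fell. Without that mouse 1599 of all genes passed as higher and 1752 as lower at that step, against 1479 and 1329 with it. Of the class II list, 2 of 9 rose between 3w and 5m in input_TH, H2-Ab1 among them (2.99 ± 0.80, 0.021), whose 5m mean of 1.87 ± 2.38 CPM had an SD above its mean, and 1 passed without mouse 191.

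The interferon-stimulated list (63 genes, 48 tested in input_TH) was mixed. Between 3w and 5m in input_TH 6 rose and 1 fell (background 4.76% higher), with Xaf1 at 0.87 ± 0.19 (edgeR adjusted p = 0.00591), Ifit3b at 0.84 ± 0.20 (0.0103), Ifi27 at 0.64 ± 0.18 (0.0302), and the antiviral GTPase Mx2 at -1.22 ± 0.27 (0.00659). Between 5m and 18m in input_TH 1 rose and 5 fell (background 7.35% lower), with a list median of -0.357 where all genes had -0.00014. Parp14 (-0.79 ± 0.24, 0.0341), the RNA sensor gene Ddx58 (-0.70 ± 0.18, 0.0176), Slfn5 (-0.65 ± 0.19, 0.0292) and the interferon signal transducer Irf9 (-0.63 ± 0.11, 0.00296) fell there, as Ifit3 was lower there. Without mouse 191, 4 passed, 2 of them higher, and 3351 of all genes passed against 2808 with it.

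In SC_TH 2 of 39 interferon-stimulated genes rose between 3w and 5m (background 9.48% higher) and 2 fell, with Slfn5 at -1.12 ± 0.21 (edgeR adjusted p = 0.00182) and the RNA-editing enzyme Adar at 0.47 ± 0.07 (0.000302). None of 39 passed in SC_TH between 5m and 18m in edgeR, and 0 in DESeq2. An unadjusted p under 0.05 was found for 5 of them, and for 2878 of all 16427 genes tested. The receptor subunit Ifnar1 was lower at 5m than at 3w in input_TH (-0.29 ± 0.06, 0.00344) and in SC_TH (-0.27 ± 0.09, 0.0358), and Ifngr2 in input_TH (-0.37 ± 0.06, 0.000765).

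In the pellets, where 36.9% of all genes were higher in SYN, 21 of 27 complement genes were higher in SYN and 2 lower (list median 1.13), 18 of 23 class I genes higher and 3 lower (1.05), 5 of 8 class II genes higher and none lower (0.885), and 15 of 41 interferon-stimulated genes higher and 11 lower (0.116), where the median of all genes was -0.0804. The interferon-stimulated share was close to that of all genes. In the inputs 36.7% of all genes were higher in SYN and 8464 of 17860 were lower, with a median of -0.167. Of the interferon-stimulated genes 31 of 48 were lower there and 7 higher (median -0.922), while Ifit3 was higher.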

How the data were processed

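Libraries were made by the authors with rRNA depletion, a directional kit and adaptors with molecular identifiers, and sequenced single-end in 2 runs. The run of each library is not labelled. Per the methods and the submitters' processing notes, reads were converted with bcl2fastq 2.20.0.422, aligned to GRCm38 with TopHat2 2.1 and assigned to genes with featureCounts without regard to strand. Whether molecular identifiers were used to collapse reads is not given in the sources used here. SD, SE and fitted intervals cover the spread between mice, and the limits given for 0 counts cover counting error only. The deposited values are raw counts per gene, without normalization, for 48 libraries. Symbols came from GENCODE M21 (48144 of 48526 identifiers, the rest holding 0.0596% of counts). CPM were computed here from the deposited counts with TMM factors over all 48 libraries, and RPKM from exon lengths.

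Genes were tested on the counts with edgeR 4.0.16 (quasi-likelihood test, filterByExpr, Benjamini-Hochberg adjustment over all genes tested, threshold 0.05) in R 4.3.3. Ages were compared within the 12 libraries of a fraction, and fractions within 24 libraries, averaged over the 3 ages. These fits held no term for the mouse, so libraries of one mouse entered the comparisons between fractions as if independent. DESeq2 1.42.0, other filters, plain library totals, thinned counts, a correction for GC content and length, and leaving out each mouse were run as alternatives. The mouse was also fitted as a random block over all 48 libraries in limma 3.58.1, for the age comparisons. For comparisons between fractions it was fitted as a fixed block in edgeR. The tests were checked on simulated counts.

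The 9 genes and the lists were chosen with earlier results of these data known. List genes are named where an adjusted p under 0.05, at least 20 counts in the higher group and groups without overlap met, up to 4 per list in each age comparison of input_TH and SC_TH. Libraries with one number come from the same mouse. The check of that pairing gave correlations of deviations from -0.373 to 0.355 over 72 pairs of groups and mice (median 0.0761, 30 above 0.1). The labels do not say whether mice shared a litter or a preparation day.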

Additional observations from a re-analysis of the deposited data

Results flagged for a closer look

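Of 120 groups of 4 libraries examined, 9 had a highest or lowest library far from the other 3 by Dixon's criterion, where chance gives about 1 in 20, or 6. The values in brackets are the gap to the nearest library divided by the range of the group.

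In input_TH at 5m mouse 191 was the high library for 4 of the 9 genes: C4b (44.2 CPM against 24.5 to 26.8, 0.883), H2-D1 (37.6 CPM against 16.0 to 18.3, 0.893), H2-K1 (30.8 CPM against 9.76 to 10.4, 0.972) and Bst2 (4.47 CPM against 1.07 to 1.54, 0.862). The marker sums that stood high in this library are given with the results, and their part was not tested. In input_TH at 18m Cd74 was high in mouse 195 (4.62 CPM against 3.11 to 3.19, 0.951).

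In SC_TH C4b was low in mouse 194 at 5m (31.0 CPM against 37.5 to 38.0, 0.924) and C4a was low in mouse 196 at 18m (7.59 CPM against 11.4 to 12.1, 0.842). In SC_SYN at 18m C3 was low in the same mouse 196 (1.39 CPM against 1.97 to 2.08, 0.837). The total count of the input_TH library of mouse 187 at 3w was 13225435, against 9827220 to 10385227 in the other 3 (0.836).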

How the results depend on the processing

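Counts of the 9 genes passing moved by more than 1.5 times as follows, and the cause was not tested except where fewer genes or samples entered. The number of all genes passing moved with the setting too, so these counts do not show a change particular to the 9 genes. That number is given below for DESeq2 and for library totals only. For 18m against 5m in SC_SYN (0) DESeq2 gave 2, where 325 of all genes passed against 2 in the main fit. Library totals gave 1 there, where 3 of all genes passed. No count filter gave 1, one fit of all 48 libraries 3 and the replicate block by limma 3. For 18m against 5m in input_TH (4) library totals gave 2, where 3059 of all genes passed against 2808 in the main fit. Thinned counts gave 1 there and the fit of all 48 libraries 1. A fit of only the ages compared gave 2 and the replicate block by limma 1. For 5m against 3w in input_TH (5) no filter gave 8 and only the ages compared 3. For 5m against 3w in SC_TH (3) no filter gave 7, a minimum of 10 counts 1 and thinned counts 1, and for 18m against 5m in SC_TH (3) that minimum gave 1. In input_SYN (1 at each step) no filter gave 2 at both steps and the fit of all 48 libraries 2 for 5m against 3w. In SC_SYN for 5m against 3w (3) the replicate block by limma gave 5. The minimum of 10 counts gave 5 in SC_SYN against SC_TH (8) and 4 in SC_TH against input_TH (7), where thinned counts also gave 4. No filter gave 2 in the interaction of age with SC_TH and input_TH (0).

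The direction turned for C4a in input_SYN against input_TH, to -0.37 with library totals, and for H2-K1 for 18m against 5m in input_TH, which ran from -0.26 (without mouse 193) to 0.51 (without mouse 191). Values that did not pass also changed sign, C3 in SC_SYN against SC_TH (-0.92 to 0.38) and Cd74 for 18m against 5m in input_TH (-0.83 to 0.79) among them. With plain totals the summed level of the 9 genes moved from 139.5 to 165.7 CPM in SC_TH, from 215.6 to 176.7 CPM in input_SYN and from 330.1 to 273.3 CPM in SC_SYN. The mouse as a fixed block in edgeR made C4a pass in SC_SYN against input_SYN (0.35) and Bst2 in input_SYN against input_TH (0.61), and changed no other call between fractions. In the age comparisons a different model was run, limma with the mouse as a random block over all 48 libraries. It lost C3 for 5m against 3w and C4a, C3 and Ifit3 for 18m against 5m in input_TH. In SC_TH it lost B2m for 5m against 3w and Cd74 for 18m against 5m. It gained C3 for 5m against 3w in SC_TH, B2m and Ifit3 for 5m against 3w in SC_SYN, and C4a and C4b for 18m against 5m there. The fit of all 48 libraries without a block gave the same counts for 18m against 5m in input_TH and in SC_SYN. The part of the block in these changes was not tested.

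Leaving out 1 mouse at a time gave 3 to 8 for 5m against 3w in input_TH (3 without mouse 190, 8 without mouse 192), 1 to 5 for 18m against 5m there (1 without each of mice 189, 194, 195, 196, 197 and 198, 5 without mouse 191), 1 to 5 for 5m against 3w in SC_TH (1 without 188 or 191, 5 without 189), 2 to 4 for 18m against 5m in SC_TH, 1 to 1 at both steps in input_SYN, 2 to 4 and 0 to 1 at the 2 steps in SC_SYN, 7 to 8 in SC_SYN against SC_TH, 5 to 6 in input_SYN against input_TH, 6 to 7 in SC_TH against input_TH and 5 to 6 in SC_SYN against input_SYN. The interactions gave 0 to 0, except 0 to 2 for 18m against 5m between SC_TH and input_TH, with 2 without mouse 191. The share of passing genes that were higher in that contrast was 34.1% with TMM and 52.9% with library totals, and 41.7% and 67.9% in the contrast of the inputs. The number of all genes passing also moved when mouse 191 was left out. For 18m against 5m in SC_TH it was 774 without that mouse and 356 with it. This number is not given here for the other mice. Depth limits C3, which had 0 to 45 counts per library.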

Other observations

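Of the genes of reactive glia, a list outside the complement, MHC and interferon genes, 2 of 13 rose between 3w and 5m in input_TH (4.76% of all genes did), 3 of 13 in SC_TH (9.48%), 2 of 10 in input_SYN (1.28%) and 2 of 13 in SC_SYN (4.02%). Between 5m and 18m 2 rose and 1 fell of 13 in input_TH (8.18% and 7.35% of all genes), and 1 of 13 rose in SC_TH (0.377%). In edgeR 0 of 10 passed in input_SYN at that step (1 with an unadjusted p under 0.05, 0 in DESeq2) and 0 of 13 in SC_SYN (3 unadjusted, 1 in DESeq2). Of all genes, 1214 of 12975 in input_SYN and 2474 of 14240 in SC_SYN had an unadjusted p under 0.05. In DESeq2 64 and 325 of all genes passed. This list was also chosen with earlier results of these data known. Serpina3n, an astrocyte protease inhibitor, rose between 3w and 5m by 0.64 ± 0.10 in input_TH (edgeR adjusted p = 0.00057), from 6.38 ± 0.517 to 9.93 ± 0.392 CPM, and by 1.47 ± 0.22 in SC_TH (0.000374). Lyz2, a lysozyme of myeloid cells, rose at that step by 1.45 ± 0.25 in SC_TH (edgeR adjusted p = 0.00102), and Spp1 (osteopontin) by 1.15 ± 0.21 (0.00149). Spp1 was the gene of this list that rose again in SC_TH by 18m, by 0.77 ± 0.15 (0.0147), from 5.15 ± 0.639 to 8.79 ± 0.827 CPM. Gfap, the astrocyte intermediate filament, rose between 5m and 18m in input_TH by 0.34 ± 0.06 (0.00263), while Osmr, a cytokine receptor subunit, fell by 0.80 (0.0172) on the log2 scale.

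Oligodendrocyte markers fell between 3w and 5m in all 4 fractions, with 10 of 10 lower in input_TH and 9 of 10 in each of the others.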
